A study of Saccharomyces cerevisiae with 6 samples.

Results

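The first step of ploidy in budding yeast was examined by setting 3 genomic run-on arrays of a wild-type diploid strain (2N, PY4993) against 3 of a wild-type haploid strain (N, BY4741). These were 2 of the 6 strains of the study and 6 of its 18 run-on arrays, chosen by the ploidy named in the sample titles, and arrays were paired by run-on number 1 to 3. Both strains were growing exponentially in the rich medium YPD. The other 4 strains were a cln3 deletion, a whi5 deletion, a triploid and a tetraploid. They enter below through the shared estimate of spread and as arrays whose levels did not enter the diploid minus haploid difference. The labels give no genotype for either strain beyond its name, so the number of genome copies and any other difference between BY4741 and PY4993 cannot be told apart. BY4741 is a laboratory strain that carries deletions of several auxotrophic marker genes.

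In genomic run-on, cells are opened with the detergent sarkosyl and given radioactive UTP. RNA polymerases that were already engaged on the DNA extend their transcripts, and the more polymerase a reading frame carried, the more label collects on its spot. A haploid yeast cell has a single mating type and expresses genes for pheromones, their receptors and the signalling that leads to mating. A diploid made by mating holds both mating-type alleles, whose joint repressor turns off such haploid-specific genes, and diploid cells are larger. The deposited files identify a spot by its coordinates in the printed grid (row and column of its block, then position) and give no gene for it. Neither the mating type of the strains nor any gene group could therefore be checked.

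Each array carried 6144 spots in 384 blocks of 16. Between 4514 and 4699 spots on a haploid array and between 4827 and 5039 on a diploid array reached 2 or more in signal-to-noise ratio (S/N), which is called detected here. The level of a spot is the log2 ratio of its run-on signal to the genomic DNA signal of the same membrane, centred on the median of its array, so that 0 is the median spot and spots of unequal length or DNA content can be set side by side. Haploid arrays lay on membranes 12, 13 and 14 and diploid arrays on membranes 16, 17 and 18, so no membrane held both strains. Precision is limited by having 3 arrays of each strain, and separate cultures are not mentioned in the labels, so the spread behind each p-value is that between these arrays and may be technical.

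Among called spots, loss of run-on signal was far more frequent than gain. Of 5933 spots tested, 39 were lower in the diploid and 2 were higher (limma, Benjamini-Hochberg adjusted p under 0.05), which is 0.691% of the spots in both directions, 0.657% lower and 0.0337% higher. The fitted fall among the 39 had a median of 1.79 on the log2 scale, a factor of 3.47, whereas the median difference over all tested spots was -0.02 with an interquartile range from -0.22 to 0.15. For the 31 spots detected on at least 1 diploid array the falls ranged from -0.72 to -5.00 with a median of -1.66, and 10 were past 2 log2 units, 17 between 1 and 2 and 4 under 1. The other 8 were not above background on any diploid array, so their fitted falls, up to -6.53, are no measured sizes. Bounds were taken against the lowest detected signal of each diploid array, or the spot's own signal where that was higher. They are approximate, since the signal that reached an S/N of 2 differed between spots of an array. By these bounds the haploid exceeded the diploid at the 8 spots by 1.87-fold to 19.0-fold or more. Of the 8, 3 were detected on all 3 haploid arrays. With the 8 at their bounds the median of the 39 was -1.76. At an unadjusted p under 0.05 the excess of losses was weaker, with 283 spots lower and 112 higher. With an adjusted p under 0.1 in place of 0.05 the counts were 56 lower and 2 higher. The fit behind the calls compared strain means without the pairing, and with run-on number as a block 55 spots were lower and 2 higher.

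The spots that fell were mostly well transcribed in the haploid and poorly transcribed in the diploid. In the haploid 23 of the 39 lay in the top 25% of all tested spots by level, and in the diploid 27 lay in the bottom 25%. Their median level was 0.79 in the haploid, with an interquartile range from 0.00 to 1.41, and -1.39 in the diploid, with a range from -2.10 to -0.54. These levels were used to make the calls and are given as a description. The median SD over the 3 arrays at these spots was 0.25 in the haploid and 0.23 in the diploid, close to the values over all tested spots (0.27 and 0.26). The haploid and diploid values did not overlap at the 38 lower spots with all 6 values. Over all 5889 spots with 6 values, the ranges did not overlap in the lower direction at 7.69% and in the higher direction at 4.4%, or 12.1% together. The called lower spots lay in 38 of the 384 blocks and in 15 of the 16 block rows. Whether their places on the membrane differed from those of all tested spots was not tested.

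**Figure D1:**
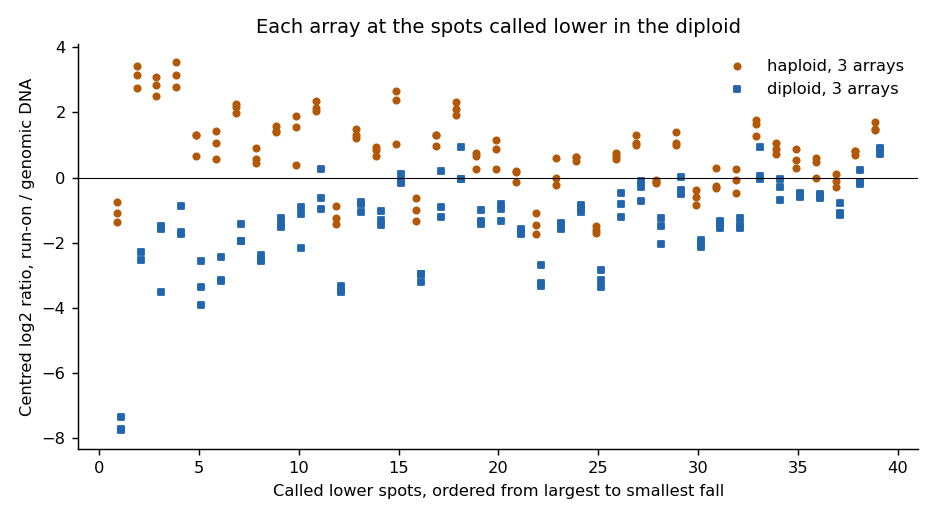
Level, as centred log2 ratio (vertical axis), at the 39 spots called lower in the diploid, ordered from the largest to the smallest fitted fall (horizontal axis), with 1 point per array and undetected values included. Haploid circles lie above diploid squares at the 38 spots with a value on all 6 arrays, and 3 spots keep a diploid mean above 0.

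Most of the falls had run-on signal detected on both sides, but fewer had genomic DNA detected on all membranes. All 3 haploid arrays detected 33 of the 39 spots, and 21 of the 39 were detected on all 6 arrays. In the diploid 10 were detected on 1 or 2 arrays and 8 on none. Genomic DNA was detected on all 6 membranes at 17 of the 39, or 43.6%, against 39.0% of all tested spots. The strictest class, 14 spots with both run-on and genomic DNA detected throughout, fell by a median of 1.64 on the log2 scale, with 12 of the 14 past 1 unit. No gained spot was in that class.

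At the spot in row 16, column 20, position 1, the largest fall of that strictest class, the haploid levels were 2.52, 3.08 and 2.85 and the diploid levels -1.49, -1.57 and -3.50 in run-on 1, 2 and 3. Every haploid array was high and every diploid array low, with run-on 3 the lowest. The diploid S/N was 4.04, 4.27 and 2.76, near the detection limit, against 20.9, 14.3 and 13.1 in the haploid. The log2 difference was -5.00 (SE 0.62, adjusted p = 0.000292), a 32.1-fold fall.

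The next largest fall of that class was at row 3, column 23, position 1. Haploid levels were 0.43, 0.92 and 0.57 and diploid levels -2.54, -2.37 and -2.57, so the diploid arrays lay close together and far below the haploid ones. The log2 difference was -3.13 (SE 0.29, adjusted p = 1e-05), an 8.78-fold fall. Both falls stayed called in each of the 15 alternative fits and without each single array.

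The 2 gains had no class of well-measured spots to be ranked in and were taken as the only higher calls. At row 12, column 18, position 1, haploid levels were -0.93, -0.77 and -0.99 and diploid levels 0.61, 0.61 and 0.81. The groups did not overlap, and the fitted difference was 1.58 log2 units (SE 0.21, adjusted p = 0.000578). The haploid S/N was 1.01, 2.12 and 1.58, so 1 of the 3 haploid arrays detected the spot and the size is uncertain. Without background subtraction it was 0.92 (adjusted p = 0.0169), and genomic DNA was detected on 2 of the 6 membranes.

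At row 4, column 11, position 8, haploid levels were -4.18, -6.26 and -5.28 and diploid levels -1.75, -1.49 and -2.29. No haploid array detected it, with S/N of 0.378, 0.1 and 0.272, and only a bound can be given. By that approximate bound the diploid was 1.72-fold higher or more, and the limma fit gave an adjusted p of 0.00178. The bound was formed as above, with the haploid arrays as the dim side and the undetected diploid array kept in the diploid mean. With membrane as a fixed block the calls of both gains were lost (adjusted p = 0.138 and 0.0740). Both calls stayed with membrane as a random block (adjusted p = 0.000804 for each) and with blocks for membrane and run-on number together (adjusted p = 0.0108 and 0.0211). The call of the second was also lost without background subtraction (adjusted p = 0.0726) and with run-on number as a block in the 6 arrays alone (adjusted p = 0.0709). Neither gain could be tested where genomic DNA had to be detected on all membranes.

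Genomic DNA and membrane were examined beside the count of losses. At the 39 spots the genomic DNA signal of the diploid membranes differed from that of the haploid membranes by a median of -0.10 on the log2 scale, inside the interquartile range over all spots from -0.15 to 0.17. Over all tested spots this DNA difference correlated with the diploid minus haploid difference (Pearson r = -0.30). Genomic DNA is the divisor of the level, so its difference enters the diploid minus haploid difference with a minus sign. A negative correlation is thus partly built in, and what else entered it was not tested. Without division by genomic DNA the 39 spots had a median difference of -1.92, all 39 were negative and 31 were still called lower. With membrane as a fixed block, which is estimated through the other strains, their median difference was -1.94 and all 39 were negative, but the standard errors grew and 13 spots passed, 11 of them among the 41. With only the 6 arrays in the fit, which leaves fewer arrays to estimate the spread, 20 spots were lower and 2 higher.

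Counting by size alone also gave more losses than gains, with a less uneven balance than among the calls. Among 5889 spots with all 3 pairs of arrays, 86 had a mean difference below -1 and a fall in every pair, and 22 had a mean difference above 1 and a rise in every pair, which is 1.46% and 0.374% of the spots. A change past 1 log2 unit in each of the 3 pairs was seen at 40 spots downward and 4 upward. Past 2 units on average there were 18 losses and 3 gains, with fitted values of undetected spots included. In single pairs the counts below -1 and above 1 were 208 and 172 in run-on 1, 227 and 70 in run-on 2, and 231 and 109 in run-on 3, so run-on 1 was the most even. Where only 2 pairs had to move the same way, losses and gains numbered 149 and 33 without run-on 1, 124 and 53 without run-on 2, and 105 and 38 without run-on 3.

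The losses and gains of this size differed in how well they were measured. Of the 86 losses 48 were detected on all 3 haploid arrays, and of the 22 gains 5 were detected on all 3 diploid arrays. Neither strain was detected throughout at 35 of the losses and at 17 of the gains. Genomic DNA was detected on all 6 membranes at 29 losses and 1 gain. With density in place of background-subtracted signal 59 losses and 4 gains were counted in place of 86 and 22.

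Over all spots the tilt was smaller. All 3 pairs were negative at 1155 of 5889 spots (19.6%) and all 3 were positive at 877 (14.9%). The median of single pairs was -0.04, -0.03 and -0.01. These are shares over spots, which are not independent of each other, and no test is given for them.

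**Figure D2:**
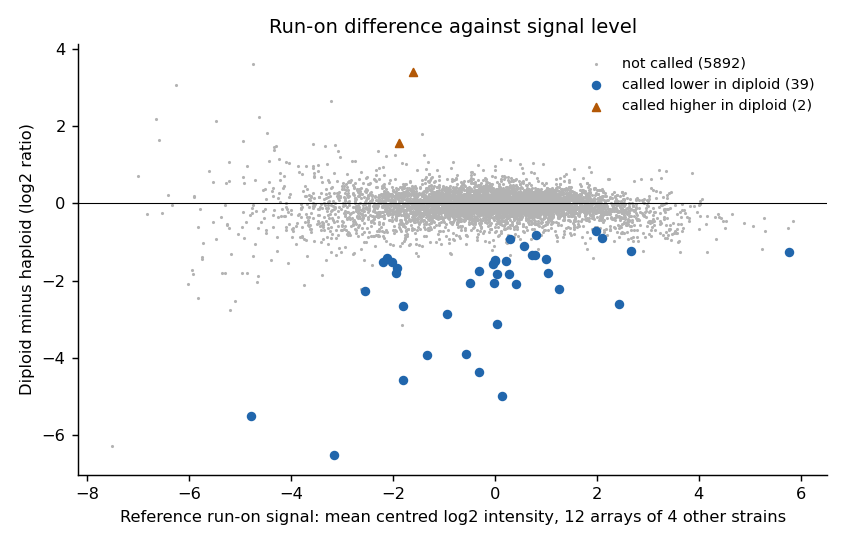
Diploid minus haploid log2 ratio (vertical axis) of the 5933 tested spots against reference run-on signal (horizontal axis, mean centred log2 intensity over the 12 arrays of the other 4 strains). The 39 lower calls (circles) spread over low and high reference signal, and the 2 higher calls (triangles) lie at low reference signal. The cloud bends below 0 at the bright end.

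Few spots fell silent in the diploid. Detected on all 3 haploid arrays and on none of the 3 diploid arrays were 6 spots, of which 3 were called lower. The S/N of these 6 spots ranged from 2.11 to 27.2 in the haploid and reached at most 1.92 in the diploid. By the same approximate bounds, the haploid exceeded the diploid by 1.03-fold to 19.0-fold or more, with 3 of the 6 past 2-fold. None of the 6 had genomic DNA detected on all 6 membranes. Leaving out an array loosens the rule, and the count became 17, 10 and 7 without haploid array 1, 2 and 3, and 19, 9 and 13 without diploid array 1, 2 and 3.

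The opposite class was larger but held hardly any change in level. Detected on all 3 diploid arrays and on none of the haploid ones were 68 spots, of which 0 were called in the limma fit. Their median log2 difference was 0.10, 1 of the 68 differed by over 1 unit, and that one was lower in the diploid by 1.01. Their S/N had a median of 2.83 in the diploid and 1.45 in the haploid, on both sides of the limit of 2. Without haploid array 1, 2 or 3 this class numbered 104, 105 and 113, and without diploid array 1, 2 or 3 it numbered 86, 136 and 94. The diploid arrays detected more spots than the haploid arrays as a whole. The mean number of detected spots was 4949 ± 109 (SD, n = 3) in the diploid and 4636 ± 106 (SD, n = 3) in the haploid, a difference of 312 (two-sided exact permutation test, p = 0.1, the smallest p that 3 against 3 arrays allow; 0.3 after adjustment over 3 measures per array).

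When the same number of spots, the 4514 highest by S/N, was taken as detected on each array, the classes were nearly equal, with 19 lost and 20 gained. Of the 19 lost spots 6 were called lower, with a median log2 difference of -0.61, and of the 20 gained spots 1 was called higher, with a median of 0.21. This matched count was added after the data were seen. A signal listed at 0 on all 3 arrays of one strain and above 0 on all 3 of the other occurred at 2 spots in each direction, with an S/N of at most 0.382, and gives no measured change.

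The size of the difference varied with signal level, and its direction at the dim end turned with the processing. Spots with values on all 6 arrays were put into 10 equal classes (deciles) by their mean run-on signal on the 12 arrays of the other 4 strains, so that noise of the compared arrays did not set the order. From the third to the ninth decile the median difference lay between -0.01 and 0.03. In the lowest decile it was -0.10, with an interquartile range of 0.69 log2 units, and in the highest decile it was -0.16 with a range of 0.41, against 0.28 in the ninth. The median SD over the 3 arrays fell from 0.48 in the haploid and 0.47 in the diploid in the lowest decile to 0.23 and 0.25 in the highest. The wide differences of dim spots thus went with wide spread between arrays, and those of the brightest spots did not. The mean of the 3 pair medians in the lowest decile was -0.11, but it was 0.04 without division by genomic DNA and -0.45 without background subtraction.

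Lower calls occurred at all levels of the reference signal. This reference includes triploid and tetraploid arrays, on which these spots were low as well, so a decile can understate their brightness in the haploid. The falls at row 16, column 20, position 1 and row 3, column 23, position 1 lay in decile 6. Their haploid S/N was 13.1 or more, against a haploid median of 6.10 in that decile. The lower calls numbered 4, 6, 1, 2, 6, 6, 2, 5, 1 and 5 from the lowest to the highest decile, and both higher calls were in the second decile. Mean differences below -1 numbered 32 in the lowest decile and 9 in the highest, and differences above 1 numbered 20 and 0.

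The brightest spots were lower in the diploid in every pair of arrays. In the highest decile the median difference was -0.17, -0.15 and -0.18 in run-on 1, 2 and 3, and 425 of its 589 spots (72.2%) were below 0, while in the lowest decile it was -0.15, -0.18 and -0.01. In the brightest 5% of spots the median level of the haploid arrays was 1.90, 2.02 and 2.11 and that of the diploid arrays 1.63, 1.74 and 1.79. Every haploid array lay above every diploid array, with means of 2.01 ± 0.11 and 1.72 ± 0.08 (SD, n = 3 each), a difference of -0.29. Among these 295 spots 159 were lower in all 3 pairs and 13 were higher in all 3, and 3 were called lower. In the brightest 2% the difference of array medians was -0.40 and in the brightest 1% it was -0.32. In the brightest 1%, 44 of 59 spots (74.6%) were lower in all 3 pairs and 1 was higher in all 3.

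Exact permutation tests (two-sided) of these array medians gave p = 0.4 for the brightest 10% and p = 0.1 for the brightest 5%, 2% and 1%, and Benjamini-Hochberg adjustment over the 4 nested sets raised the last 3 to 0.133. With 3 arrays against 3 none could pass. The smaller sets were chosen after the data were seen.

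**Figure D3:**
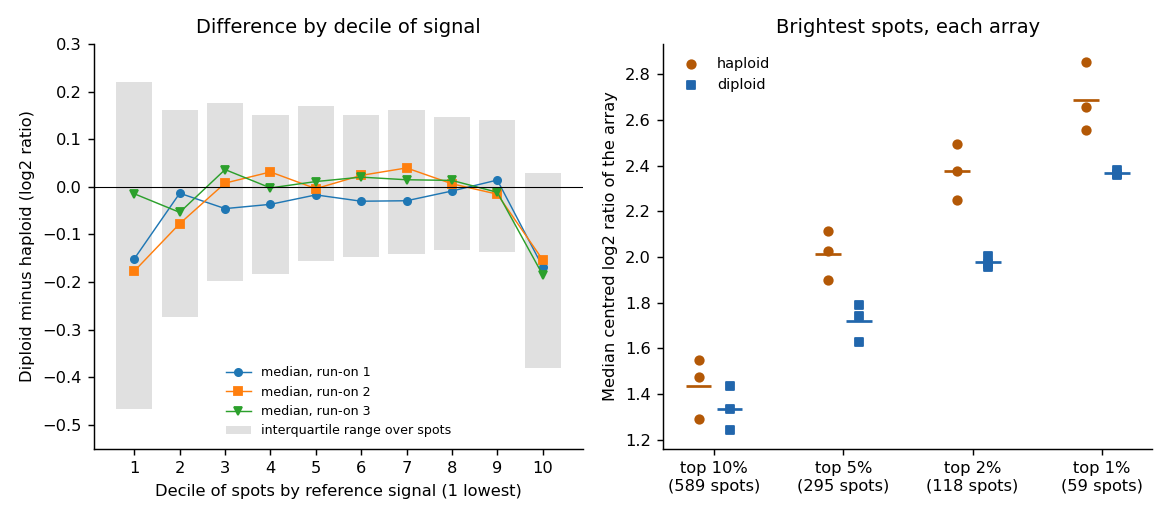
Left, diploid minus haploid log2 ratio (vertical axis) by decile of reference signal (horizontal axis, 1 lowest), with the interquartile range over spots as grey bars and the median of each run-on pair as points. Right, median centred log2 ratio of each array over the brightest 10%, 5%, 2% and 1% of spots, with group means as lines: haploid and diploid arrays overlap in the first set and are apart in the other 3.

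The difference at the bright end depended on background subtraction. Without it the median of the highest decile was 0.03 and the brightest 5% differed by -0.08 (exact permutation test, p = 0.6). Quantile normalisation, which gives every array the same distribution, left -0.01 and -0.06. Without division by genomic DNA, the centred run-on signal of the brightest 5% lay between 3.08 and 3.13 on haploid arrays and between 2.84 and 2.95 on diploid arrays. The haploid stood high among all strains in this set, since the level was 1.86 ± 0.13 in the whi5 deletion, 1.75 ± 0.08 in the cln3 deletion, 1.71 ± 0.18 in the triploid and 1.63 ± 0.03 in the tetraploid (SD, n = 3 each). The slope of the level on reference signal, over the whole range, was 0.52 ± 0.07 in the haploid and 0.53 ± 0.07 in the diploid (SD, n = 3 each; exact permutation test, p = 0.9), and the sign of that slope difference changed between alternatives. The MAD of the level was 0.98 ± 0.06 and 0.98 ± 0.09 (SD, n = 3 each).

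The 39 lower spots were then read on the 12 arrays of the other 4 strains, which entered the calls through the estimate of spread. Cln3 is the cyclin that starts the commitment of a yeast cell to division, and Whi5 holds back the transcription factor that Cln3 helps to release. The median over the 39 spots was 0.51 in the whi5 deletion and 0.35 in the cln3 deletion, nearer to the haploid's 0.79 than to the diploid's -1.39. It was -1.41 in the triploid and -1.46 in the tetraploid, near the diploid. Set against the midpoint between haploid and diploid at each spot, the whi5 deletion was on the haploid side at 36 of 39 spots and the cln3 deletion at 29. Large falls were among the exceptions of the cln3 deletion. It stood at -1.10 against 3.16 in the haploid at row 14, column 10, position 9. At row 11, column 6, position 6 it stood at -0.84 against 2.13. The triploid and the tetraploid were each on the diploid side at 38 of 39. The source label of the cln3 deletion names wild-type cells with added potassium chloride, against its title, so its side is that of the library labelled cln3 deletion.

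**Figure D4:**
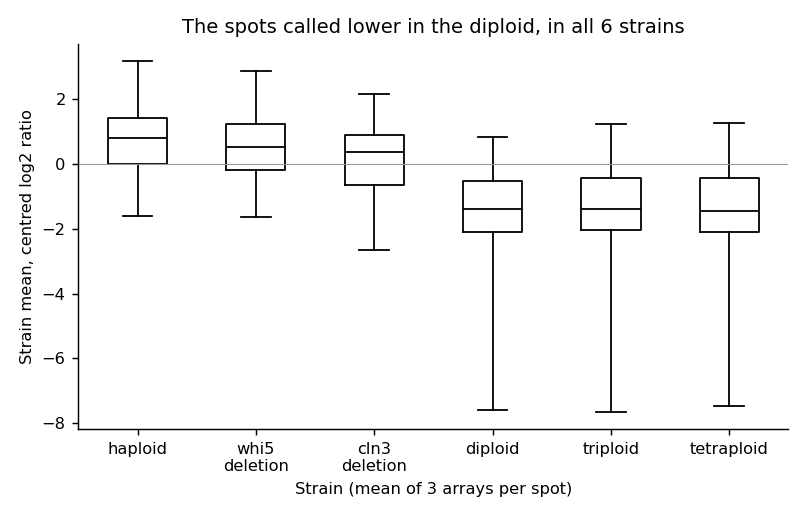
Mean centred log2 ratio per strain (vertical axis) at the 39 spots called lower in the diploid, with 1 box per strain (horizontal axis) giving the median, the quartiles and, as whiskers, the lowest and highest spot. The haploid and both deletion strains have medians above 0, and the 3 polyploid strains have medians between -1.46 and -1.39.

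A contrast compared the mean of triploid and tetraploid with the mean of the 2 deletion strains, over all spots. Its means came from these 12 arrays and its estimate of spread from all 18. The contrast called 2.07% of 5934 spots lower and 0.573% higher (limma, adjusted p under 0.05). Of the 39 spots 35 were called lower in it and all 39 were negative, with a median of -1.65. Both spots that were higher in the diploid were also called higher. At row 4, column 11, position 8, however, the library labelled cln3 deletion stood at -0.99 ± 0.48, beside the triploid at -1.13 ± 0.17 and the tetraploid at -1.24 ± 0.30, and of these 4 strains the whi5 deletion alone was low, at -4.74 ± 1.07 (SD, n = 3 each). The contrast further called 88 spots lower that had not been called in the diploid. This contrast and the diploid comparison shared no run-on array in their strain means. They did share the estimate of spread, as well as membranes 12, 13, 14, 16, 17 and 18 and their genomic DNA. The 39 spots were thus called partly by the spread on these same arrays, and 35 of 39 is no independent count. The part of the membranes in the resemblance was not tested. The labels do not give the ploidy of the deletion strains.

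Against the higher ploidies the diploid showed no called difference. Diploid minus the mean of triploid and tetraploid gave 0% called (limma, 0 of 5935 spots, with 120 at an unadjusted p under 0.05). At the 39 spots that difference had a median of 0.04 and was under 1 log2 unit at 38. Membrane 18 held diploid, triploid and tetraploid arrays, and membrane 17 held a diploid and a tetraploid array. This contrast was thus partly within membranes, whereas no diploid membrane held a haploid array. The absence of calls does not show that the levels were equal. At row 3, column 23, position 1 the triploid stood at -2.55 ± 0.31 and the tetraploid at -2.85 ± 0.72 (SD, n = 3 each), beside the diploid's -2.49 ± 0.11. At row 16, column 20, position 1 the library labelled cln3 deletion was low as well, at -1.51 ± 0.04, while the whi5 deletion stood at 2.87 ± 0.68 (SD, n = 3 each), so low signal there was not limited to the polyploid strains.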

How the data were processed

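Spot tables of 6 run-on arrays were compared, with 12 arrays of the other strains in the fit. Per the file headers, the deposited density is an intensity per area, and the background-subtracted intensity is that density less the background of its block, with negative results set to 0 (checked spot by spot). The authors' S/N is a deposited score, and its formula is not stated. Per the series' design text, the authors normalised by median absolute deviation (MAD). The deposited intensities precede that step, and here it is an alternative. Each run-on intensity was taken relative to genomic DNA on the same membrane, log2-transformed and centred on the array median. Of 6144 spots, 207 were left out, 191 of them for genomic DNA at 0. A signal of 0 was missing, which concerned 80 values on the 6 arrays, and the fit used the remaining arrays of that spot.

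All 18 arrays entered 1 linear model of strain means (limma 3.58.1, R 4.3.3). The fit was tested on simulated data with noise drawn independently for each array. That simulation held no effect of run-on number or membrane, so it does not cover deviations that arrays share. The median standard error of a difference was 0.26. Arrays of the same run-on number, known from the deposited array names, deviated together (r = 0.46, 0.13 and 0.33). Run-on number therefore paired them in the differences by pair, while the reported fit left it out. The members, rules and tests were chosen with earlier results of these data known. Named spots are, per direction, the largest measured change among called spots with S/N of at least 2 on all 6 arrays and all 6 membranes, and a called silent spot with detected genomic DNA. No spot met the latter, so the next of the former or the smallest p was taken, at most 2 per direction. Replicate numbers are run-on numbers. Alternatives were other scalings, no genomic DNA division, no background subtraction, filters on dim spots, blocks for run-on number or membrane (statmod 1.5.0 for the random block) and leaving out each array.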

Additional observations from a re-analysis of the deposited data

How the results depend on the processing

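The excess of losses kept its direction in each of the 15 alternative fits and without each single array. The count of called spots (41 in the fit reported) lay between 31 and 37 without single arrays. It was 26 with genomic DNA detected on all membranes (2314 spots tested), 13 with membrane as a fixed block, 22 with only the 6 arrays, 26 with the replicate block in the 6 arrays alone, and 98 with blocks for both membrane and run-on number (85 lower, 13 higher), a choice made after the data were seen. With run-on number as a replicate block in all 18 arrays 57 spots passed, 55 lower and 2 higher, among them all 41, and none of the named spots lost its call. With membrane as a random block (consensus correlation 0.28) 48 passed. MAD scaling gave 44.

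Losses past 1 log2 unit numbered 51 with the S/N filter and 30 with detected genomic DNA, and between 105 and 149 without single arrays, where fewer pairs had to fall. Gains numbered 5 and 1 with these filters, 4 with uncorrected density, and between 33 and 53 without single arrays. Spots silent in the diploid numbered 0 with detected genomic DNA, 19 at matched numbers, and 7 to 19 without single arrays. Those silent in the haploid numbered 12, 20, and 86 to 136. The mean of the 3 pair medians in the highest decile, -0.17, was -0.0103 with quantile normalisation, 0.0297 with uncorrected density and -0.29 with detected spots only, and -0.18 to -0.16 without single arrays. In the lowest decile this mean, -0.11, was 0.04 without genomic DNA division and -0.45 with uncorrected density. For the brightest 5% the difference was -0.35 to -0.24 without single arrays. The slope difference, 0.0029, was -0.0197 without genomic DNA division, -0.0039 when ordered by the 6 arrays, -0.0518 with detected spots only, and -0.0356 to 0.0405 without single arrays. The cause of these shifts was not tested. Of the 39 lower spots, 30 to 35 were called lower in the contrast of the other 4 strains under 6 settings. Signal over background limits the dim spots, and 39.0% of tested spots had genomic DNA detected on all 6 membranes.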
